A study of Mus musculus with 6 samples.

Results

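The genes described here are 10 genes that mark tendon cells or build the matrix of tendon and of the myotendinous junction, namely Tnmd, Scx, Mkx, Thbs4, Thbs2, Fmod, Comp, Tnc, Chad and Kera. They were chosen by symbol from a list of tenocyte genes, and all 10 were found among the 24421 genes of the count tables and passed the filter on low counts, which left 14180 genes for testing. Bulk RNA-Seq counted the mRNA of gastrocnemius/plantaris (GP) muscle, a hindlimb muscle that ends in the Achilles tendon, in 6 libraries. The study asked which transcripts depend on Net39, a nuclear envelope protein of muscle, in adult mice.

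By label, and by the study's description of those groups, the 3 Ctrl-labelled libraries came from Net39 fl/fl mice without Cre. By the same sources, the 3 labelled cKO came from mice that carried HSA-CreERT2 and the same floxed alleles. All 6 were male mice aged 5 months that had received tamoxifen 3 months before. Their strain is labelled B6C3F1; by the study's methods the edited zygotes were B6C3F1 and the founders were then crossed to C57BL/6N, and the share of each strain in these 6 mice is not given in the sources used here. By their labels the Ctrl mice shared the floxed alleles and the tamoxifen but not the Cre transgene. The human skeletal actin promoter drives Cre in skeletal muscle fibres; recombination in tendon was not examined here. Total counts were 33860001 to 38201728 in the Ctrl-labelled libraries and 39191239 to 48839910 in the cKO-labelled ones, and each library is a different mouse per the labels. Net39, listed under its older symbol Ppapdc3, was counted 217 to 321 times in the Ctrl-labelled libraries and 4340 to 6080 times in the cKO-labelled ones. The targeted gene was thus low where the label reads Ctrl and high where it reads cKO, which goes against the labels. The labels were kept as given, and every direction below is stated for the Ctrl-labelled and the cKO-labelled libraries.

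Tendon is a rope of collagen fibrils laid down by tenocytes, which are fibroblasts marked by the transcription factors scleraxis (Scx) and mohawk (Mkx) and by the membrane protein tenomodulin (Tnmd). Small leucine-rich proteoglycans such as fibromodulin coat the fibrils and set their thickness, while thrombospondins, COMP and tenascin-C link fibrils to each other, to cells and to the ends of muscle fibres. Which cells the transcripts came from was not measured in these libraries. In bulk RNA, more tendon cells and more RNA per tendon cell cannot be told apart.

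Sequences upstream of 3 of the genes are shown because the 10 transcripts varied together between libraries, and because scleraxis is a basic helix-loop-helix factor, a class that binds E-boxes. Fmod and Chad are among the genes that varied most and Thbs4 is among those that varied less. Each run holds the 250 bases before the gene's start, from RefSeq on GRCm38.p6, 5′ to 3′ on the gene's strand, with matches to the E-box CANNTG in capitals (this motif reads the same on both strands). The Fmod window is chr1:134037004-134037253 (plus strand), the Chad window is chr11:94564797-94565046 (plus strand) and the Thbs4 window is chr13:92794819-92795068 (minus strand).
Fmod: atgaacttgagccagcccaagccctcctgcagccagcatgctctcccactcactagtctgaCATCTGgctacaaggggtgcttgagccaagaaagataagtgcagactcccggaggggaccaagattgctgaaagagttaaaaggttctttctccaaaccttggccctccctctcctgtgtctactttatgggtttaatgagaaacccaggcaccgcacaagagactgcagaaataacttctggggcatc
Chad: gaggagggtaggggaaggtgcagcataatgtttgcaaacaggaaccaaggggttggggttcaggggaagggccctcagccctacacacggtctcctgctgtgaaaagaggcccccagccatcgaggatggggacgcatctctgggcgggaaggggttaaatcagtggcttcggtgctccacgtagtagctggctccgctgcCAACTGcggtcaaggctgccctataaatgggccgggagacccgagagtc
Thbs4: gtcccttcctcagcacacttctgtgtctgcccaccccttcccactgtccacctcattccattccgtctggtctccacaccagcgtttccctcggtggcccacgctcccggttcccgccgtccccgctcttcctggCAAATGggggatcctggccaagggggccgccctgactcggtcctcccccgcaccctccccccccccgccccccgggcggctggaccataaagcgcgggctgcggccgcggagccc

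The E-box was CATCTG in Fmod, 189 bases before the start, CAACTG in Chad, 49 bases before it, and CAAATG in Thbs4, 115 bases before it. RefSeq windows were matched for 7 of the 10 genes, and 5 of these 7 held an E-box, against 66.2% of all 32851 windows of the same length. The windows of Tnmd and Kera held none, which says only that these letters are missing from that stretch. The box TATAAA was found, on either strand, in 3 of the 7, Chad, Tnc and Thbs2, against 12.4% of all windows. Windows of Scx, Mkx and Comp were not used. These matches describe the sequence and are not evidence of binding.

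Only 1 of the 10 genes, Kera, passed the test between the labelled groups, and it was higher in the cKO-labelled libraries (log2 fold change 1.63, standard error 0.45). The other 9 did not pass. In these genes the 3 cKO-labelled libraries differed from each other by 1.76-fold (Scx) to 10.7-fold (Chad). Their range covered or overlapped that of the Ctrl-labelled libraries. The thresholds for a call were 0.05 for the adjusted p and 2 for the fold change (edgeR's quasi-likelihood test on all genes, Benjamini-Hochberg adjustment), and log2 fold changes are labelled cKO over labelled Ctrl. Called genes were 1 of 10 here and 6.05% of all genes tested. Without the fold limit the same 1 of 10 passed, against 24.4% of all genes, and the labelled groups did not overlap in 1 of 10, against 43.9% of all genes. The count of calls among the 10 genes was thus near the background in the first of these and under it in the other 2. Of the 10 fold changes 9 were positive, with a median of 0.54, while the median of all genes tested was -0.015; the median of the 10 was -0.18 once the library labelled cKO 2 was left out.

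**Figure D1:**
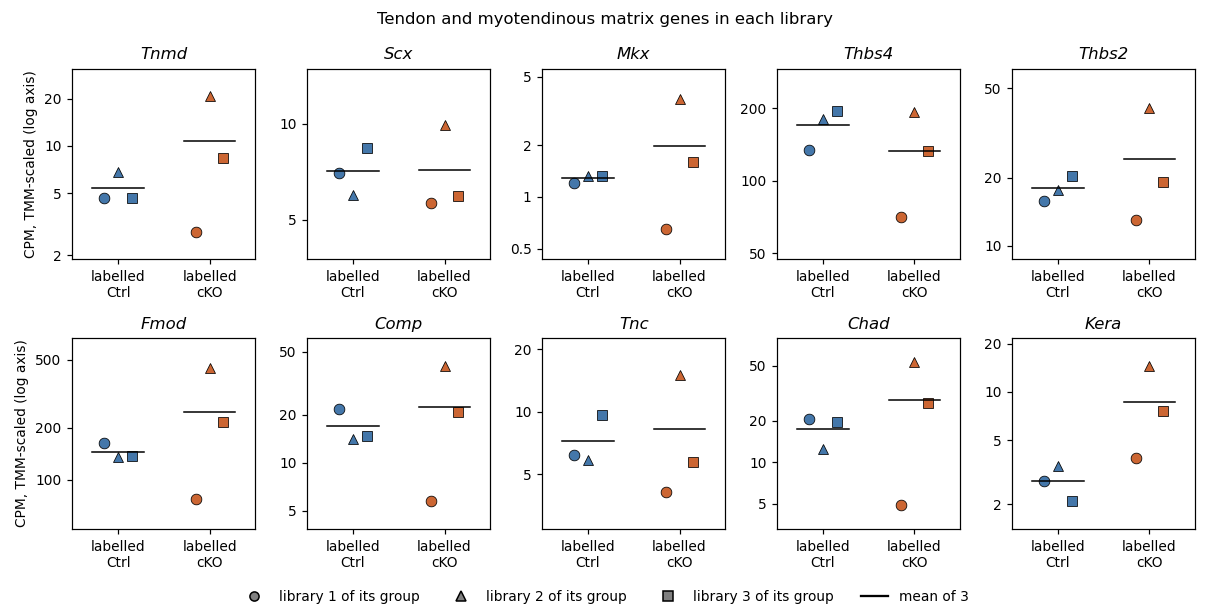
Expression of each gene in each library, in CPM scaled by TMM factors, on a log axis that differs between panels. Points are single libraries, shaped by their number within the labelled group, and lines are means of 3. The numbers are not known to pair mice across groups. In every panel the library labelled cKO 2 lies above cKO 3 and cKO 3 above cKO 1.

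The transcription factors and the membrane marker of tenocytes come first. Tnmd, a type II membrane glycoprotein of mature tenocytes, had 4.62, 6.78 and 4.68 CPM (counts scaled to the size of the library, here with TMM factors) in Ctrl-labelled libraries 1, 2 and 3. It had 2.82, 20.9 and 8.43 CPM in cKO-labelled libraries 1, 2 and 3. The library labelled cKO 2 stood highest of the 6 and cKO 1 lowest, so the groups overlapped. The estimated log2 fold change of Tnmd was 1.00 (standard error 0.61, 95% interval -0.44 to 2.44, adjusted p = 0.271), or 0.06 without the library labelled cKO 2 and 1.43 without cKO 1. Mkx, a homeobox factor needed for collagen fibril growth in tendon, was measured with few reads, 47, 55 and 48 counts in the Ctrl-labelled libraries and 23, 143 and 70 in the cKO-labelled ones. In CPM these were 1.20, 1.33 and 1.31 against 0.649, 3.71 and 1.59. The Ctrl-labelled libraries lay within 1.11-fold of each other, while the cKO-labelled ones spanned 5.72-fold and held both the highest and the lowest value. For Mkx the log2 fold change came to 0.63 (standard error 0.54, adjusted p = 0.426), or -0.19 without the library labelled cKO 2 and 1.03 without cKO 1.

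Scx, the basic helix-loop-helix factor that sets the tendon lineage, was the steadiest of the 10. It had 7.02, 5.98 and 8.40 CPM in the Ctrl-labelled libraries and 5.64, 9.95 and 5.95 CPM in the cKO-labelled ones. The same 2 libraries were the extremes, cKO 2 and cKO 1, but they differed by 1.76-fold only. The group means were 7.13 ± 1.21 and 7.18 ± 2.40 CPM (SD, n = 3), with a log2 fold change of 0.01 (95% interval -0.56 to 0.58, adjusted p = 0.981). Scx lies on chromosome 15 of GRCm38 from 76457452 to 76459458, inside the gene Bop1 on the opposite strand. The 2 genes share 0 exon bases, and Bop1, a ribosome biogenesis factor, ranged from 27.7 to 33.7 CPM, with its highest value in the library labelled cKO 1, where Scx was lowest. Use of strand in counting was not stated, so it is not known whether intronic Bop1 reads were counted for Scx.

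The fibril-associated proteoglycans and leucine-rich proteins varied more. Kera (keratocan, a keratan sulfate proteoglycan of cornea and tendon) had 2.78, 3.47 and 2.11 CPM in the Ctrl-labelled libraries. It had 3.89, 14.4 and 7.57 CPM in the cKO-labelled ones. Each library labelled cKO lay above each labelled Ctrl, and Kera was the only gene of the 10 for which this held. The nearest pair, cKO 1 and Ctrl 2, had 138 and 144 raw counts, and their order reverses when CPM is computed from total counts alone. The adjusted p was 0.0397 with a 95% interval of 0.56 to 2.69. When single libraries were left out, 5 of 6 fits lost the call, with adjusted p of 0.114, 0.0785 and 0.0986 without the library labelled Ctrl 1, 2 or 3 and of 0.0684 and 0.0852 without cKO 2 or cKO 3. The fold change stayed positive in all 6, from 1.03 to 1.96.

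Fmod (fibromodulin, which binds collagen and guides crosslinking) had the highest mean level of the 10 per kilobase of exon over the 6 libraries, above Thbs4 in 4 of them. It had 164, 135 and 137 CPM in the Ctrl-labelled libraries and 77.4, 446 and 216 CPM in the cKO-labelled ones. The libraries labelled cKO 2 and cKO 3 lay above all Ctrl-labelled ones and cKO 1 below all of them. The estimate for Fmod was 0.76 on the log2 scale (standard error 0.53, adjusted p = 0.325), and it was 0.0003 without the library labelled cKO 2 and 1.17 (adjusted p = 0.0512) without cKO 1. Chad (chondroadherin, a leucine-rich protein that binds collagen and integrin) showed the widest range. It had 20.5, 12.4 and 19.5 CPM in the Ctrl-labelled libraries and 4.94, 52.8 and 26.8 CPM in the cKO-labelled ones. As with Fmod, cKO 2 and cKO 3 exceeded every library labelled Ctrl and cKO 1 lay under every one. Its log2 fold change was 0.69 (95% interval -0.91 to 2.30, adjusted p = 0.493), and -0.14 without the library labelled cKO 2 and 1.18 without cKO 1. Chad lies within Acsf2 on the opposite strand of chromosome 11, with 0 shared exon bases, and Acsf2 had 3.16 to 4.80 CPM.

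The thrombospondin family gave 3 genes, Thbs4, Comp and Thbs2. Thbs4, which anchors muscle fibres at the myotendinous junction, had 135, 181 and 194 CPM in the Ctrl-labelled libraries and 70.8, 193 and 132 CPM in the cKO-labelled ones. It was the only gene of the 10 with its highest value in a library labelled Ctrl (Ctrl 3, with cKO 2 close behind) and the only one with a negative fold change (-0.36, standard error 0.33, adjusted p = 0.460), which was -0.75 without the library labelled cKO 2 and -0.07 without cKO 1. Comp (cartilage oligomeric matrix protein, which organizes collagen fibrils) had 21.9, 14.1 and 14.8 CPM in the Ctrl-labelled libraries and 5.79, 40.5 and 21.0 CPM in the cKO-labelled ones. Its cKO-labelled libraries differed by 7.01-fold and enclosed all 3 Ctrl-labelled ones. The estimate for Comp was 0.41 on the log2 scale (standard error 0.58, adjusted p = 0.643), and -0.35 without the library labelled cKO 2 and 0.85 without cKO 1. Thbs2, a matricellular thrombospondin that binds proteases and limits fibril width, had 15.8, 17.6 and 20.4 CPM against 13.0, 40.7 and 19.2 CPM. Here cKO 2 alone stood above the Ctrl-labelled libraries (log2 fold change 0.44, standard error 0.38, adjusted p = 0.428), and the fold change was -0.17 without it and 0.73 without cKO 1.

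Tnc (tenascin-C, a matrix glycoprotein of the myotendinous junction that is induced by load) had 6.15, 5.84 and 9.63 CPM in the Ctrl-labelled libraries. It had 4.09, 15.1 and 5.70 CPM in the cKO-labelled ones. The library labelled cKO 2 was again the highest and cKO 1 the lowest, and cKO 3 lay just under the Ctrl-labelled libraries. The estimate for Tnc was 0.20 on the log2 scale (standard error 0.47, adjusted p = 0.779), and -0.56 without the library labelled cKO 2 and 0.52 without cKO 1. In GENCODE M21, Tnc shares 176 exon bases with the antisense transcript 8030451A03Rik, and Mkx shares 201 with AC148004.2 on its own strand. Neither 8030451A03Rik nor AC148004.2 was found by name among the genes counted. Whether reads over the shared bases were counted for Tnc and Mkx is not known.

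**Figure D2:**
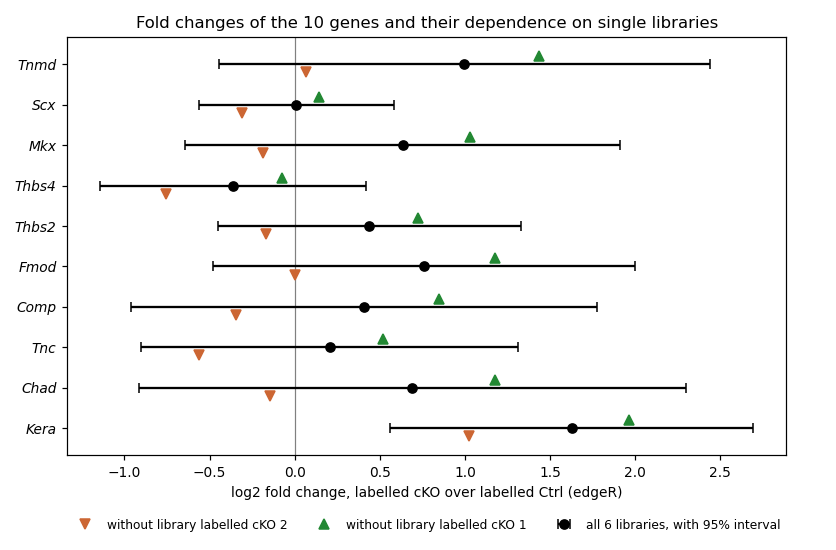
Log2 fold change of each gene, labelled cKO over labelled Ctrl, from edgeR with all 6 libraries (black points, 95% interval) and with the library labelled cKO 2 or cKO 1 left out (triangles). Of the 10 intervals 9 cross 0, all but that of Kera, and leaving out cKO 2 moved every estimate down, to below 0 in 7 genes.

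Per kilobase of exon, which allows levels of different genes to be compared, Fmod had a mean of 59.3 CPM per kilobase over the 6 libraries and Thbs4 45.9. Chad followed with 13.6, Comp with 6.64, Tnmd with 5.94, Scx with 3.57, Thbs2 with 3.01, Kera with 2.50, Tnc with 0.997 and Mkx with 0.399. The order of neighbours held in all 6 libraries for Thbs4 over Chad, Chad over Comp and Tnc over Mkx. Fmod exceeded Thbs4 in 4 of 6 libraries, and Comp over Tnmd and Tnmd over Scx held in 3 of 6 each, so these pairs did not differ beyond the spread between libraries. Scx over Thbs2 and Kera over Tnc held in 5 of 6, and Thbs2 over Kera in 4 of 6. The tenocyte markers were therefore all detected, and the secreted matrix genes Fmod and Thbs4 stood far above the transcription factors.

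The pattern common to the 10 genes was their order within the cKO-labelled libraries. In 10 of 10 genes the library labelled cKO 2 was above cKO 3 and cKO 3 above cKO 1, an order found in 20% of all genes tested. With CPM from total counts alone, which changes the scaling of these libraries, the order again held in 10 of 10 genes and in 38.8% of all genes. The highest of all 6 libraries was cKO 2 in 9 of 10 genes and in 14.2% of all genes tested, and the lowest was cKO 1 in 9 of 10 genes and in 19.5% of all genes. The exceptions were Thbs4, highest in Ctrl 3, and Kera, lowest in Ctrl 3.

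In size, the ratio of cKO 2 to cKO 1 was 10.7 for Chad, 7.39 for Tnmd, 7.01 for Comp, 5.76 for Fmod and 5.72 for Mkx. It was 3.71 for Kera, 3.69 for Tnc, 3.12 for Thbs2, 2.73 for Thbs4 and 1.76 for Scx. The median over all genes tested was 1.00. A ratio of at least 2 was seen in 9 of 10 genes and in 3.94% of all genes, and a ratio of at least 5 in 5 of 10 and in 0.557%. Between the highest and lowest library labelled Ctrl the 10 genes differed by 1.11-fold to 1.65-fold, with a median of 1.46, against a median of 4.71 among the cKO-labelled libraries. The spread was wider among the cKO-labelled libraries in 10 of 10 genes and in 51.2% of all genes. Summed over the 10 genes, expression was 378, 383 and 412 CPM in the Ctrl-labelled libraries and 189, 837 and 445 CPM in the cKO-labelled ones. The 10 genes come from the same libraries and are not replicates of each other, so this co-variation is a description of 3 mice and carries no p-value.

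Relative to Tnmd, some genes kept a steadier ratio than others. Mkx was counted at 0.178 to 0.281 reads per Tnmd read across the 6 libraries and Fmod at 19.9 to 35.4, which are ranges of 1.58-fold and 1.78-fold. Thbs4 ranged from 9.27 to 41.5 per Tnmd read, or 4.48-fold, and Scx from 0.477 to 2.00, or 4.19-fold. In log2 CPM over the 6 libraries, Pearson's r with Tnmd was 0.98 for Mkx, 0.96 for Fmod and 0.93 for Thbs2, and it was 0.64 for Thbs4 and 0.62 for Scx; Spearman's rho was 1.00, 0.77, 0.83, 0.43 and 0.49 in the same order. Among 12343 other genes with a mean of at least 1 CPM, the one most like Tnmd was Col11a1, the alpha-1 chain of collagen XI, a minor collagen that nucleates thin fibrils (r = 0.99, 6 libraries). Col11a1 had 2.58, 2.87 and 2.08 CPM in the Ctrl-labelled libraries and 1.38, 8.78 and 3.54 CPM in the cKO-labelled ones. The next 4, Fam208b, Srek1ip1, Ankmy2 and Emc7, had r of 0.97 to 0.98 but moved little in size; Fam208b, for example, ranged from 10.5 to 13.7 CPM. These points share their libraries and depth, and no test is given for them.

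**Figure D3:**
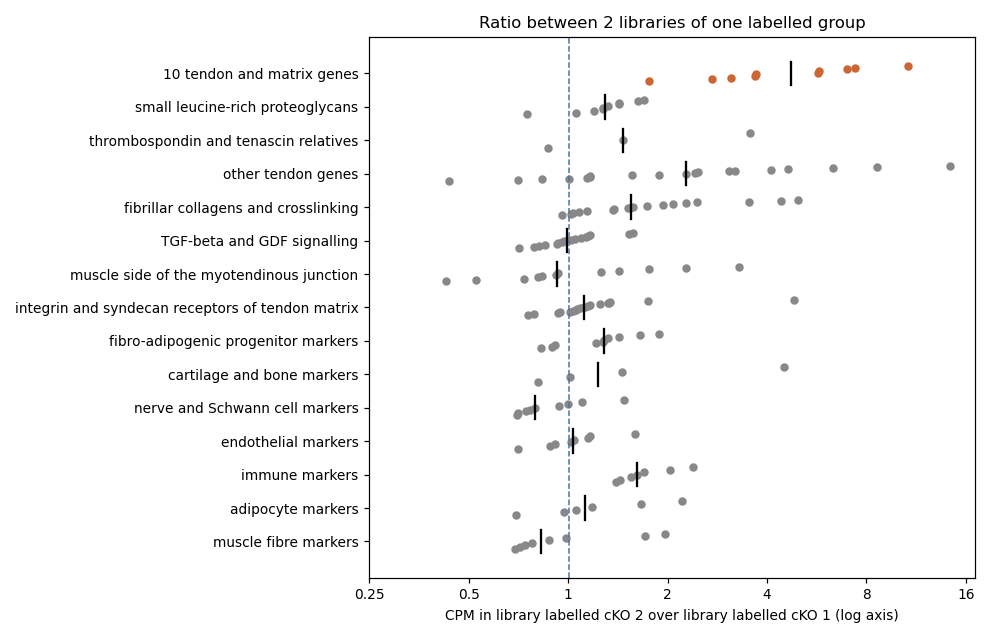
Ratio of CPM in the library labelled cKO 2 to that in cKO 1 for each gene tested (points, log axis) and the median of each list (bars). The 10 tendon and matrix genes have a median of 4.71, other tendon genes 2.27, fibrillar collagens and crosslinking genes 1.55 and endothelial markers 1.03.

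The other genes of tendon matrix and its signals were read from 7 lists, with 96 genes tested in all. Of these, 13 were called as higher in the Ctrl-labelled libraries and 2 as higher in the cKO-labelled ones, against 3.92% and 2.13% of all genes tested. Of the 15 called genes 12 kept their call under each of 13 other fits; the exceptions were Col3a1, Loxl1 and Itga5. The median fold change of 6 of the 7 lists ran from -0.05 to -0.42 and that of the thrombospondin and tenascin relatives, with 3 genes tested, was -0.85 against 0.54 for the 10 genes. With the library labelled cKO 2 left out, the medians of the 7 lists ran from -0.86 to -0.0021, and that of the 10 genes, -0.18, lay inside this range.

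Among 10 small leucine-rich proteoglycans tested, Bgn (biglycan) was the only call. It had 168, 140 and 138 CPM in the Ctrl-labelled libraries and 40.4, 65.9 and 54.1 CPM in the cKO-labelled ones (log2 fold change -1.47, standard error 0.18, adjusted p = 0.00354). Dcn (decorin), the most abundant of the list, ranged from 398 to 566 CPM with a log2 fold change of 0.20 (adjusted p = 0.327). Thbs3, a relative of Thbs4 and Comp, was lower in every library labelled cKO, with 5.05 to 7.43 CPM against 16.2 to 20.3 CPM (log2 fold change -1.53, adjusted p = 0.0028). Of the other 2 genes tested in the list of thrombospondin and tenascin relatives, Tnxb (tenascin-X) changed by -0.85, passing the adjusted p (0.00293) but not the fold limit, and Thbs1 did not pass (-0.21, adjusted p = 0.793). Among the 10 proteoglycans the labelled groups did not overlap in 4, against 43.9% of all genes tested. Without the fold limit 3 passed the adjusted p, against 24.4% of all genes. Besides Bgn these were Lum (lumican, -0.72, adjusted p = 0.0145) and Aspn (asporin, -0.98, adjusted p = 0.016), both named after their values were seen.

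Of 19 other tendon genes, 4 were called, all higher in the Ctrl-labelled libraries. Cilp, a matrix protein that binds TGF-beta, had 172, 178 and 256 CPM in the Ctrl-labelled libraries and 18.2, 55.7 and 32.4 CPM in the cKO-labelled ones (log2 fold change -2.51, standard error 0.39, adjusted p = 0.0066). Postn (periostin, a matricellular protein of loaded and healing tissue) changed by -2.39 (adjusted p = 0.00459), Lox (lysyl oxidase, which crosslinks collagen) by -2.15 (adjusted p = 0.00544) and Egr2 (a zinc finger factor active in tendon) by -1.41 (adjusted p = 0.00687). Inside the group labelled cKO, Cilp and Lox (10.5, 23.9 and 12.0 CPM) held the order cKO 2 over cKO 3 over cKO 1, Postn (5.98, 11.3 and 5.68 CPM) was highest in cKO 2 and lowest in cKO 3, and Egr2 (0.960, 0.675 and 1.02 CPM) was lowest in cKO 2. Over the whole list 10 of 19 genes held that order, and the ratio of cKO 2 to cKO 1 ran from 0.434 to 14.3. The 2 genes of the list that were not called and had the highest mean were Angptl7 (log2 fold change 0.12, adjusted p = 0.881) and Dpt (-0.58, adjusted p = 0.0062, under the fold limit).

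Of 18 fibrillar collagen and crosslinking genes, 4 were called, all higher in the Ctrl-labelled libraries: Lox, Plod2, Col3a1 and Loxl1. Col3a1, the collagen III chain, changed by -1.06 (adjusted p = 0.0281), and its call was lost without the library labelled Ctrl 1, Ctrl 3, cKO 1 or cKO 3 and with the mouse number as a replicate block. Col1a2 and Col1a1, the chains of collagen I, did not pass and spread as the tendon genes did. Col1a1 had 163, 131 and 179 CPM in the Ctrl-labelled libraries and 64.8, 322 and 115 CPM in the cKO-labelled ones (log2 fold change 0.08, adjusted p = 0.923). Col1a2 had 273, 246 and 273 CPM against 140, 495 and 238 CPM (0.14, adjusted p = 0.824). For both chains cKO 2 was the highest library and cKO 1 the lowest, as for 8 of the 10 tendon genes.

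TGF-beta and GDF signals maintain Scx expression and tendon matrix. Of 16 such genes tested, Mstn (myostatin, a muscle ligand that also acts on tendon; log2 fold change 1.95, adjusted p = 0.0057) and Smad3 (1.52, adjusted p = 0.00365) were higher in the cKO-labelled libraries, and Ltbp2 (-1.83, adjusted p = 0.00438) was higher in the Ctrl-labelled ones. Mstn had 137, 97.5 and 120 CPM in cKO-labelled libraries 1, 2 and 3, lowest in cKO 2, where the tendon genes were highest. On the muscle side of the junction, 1 of 12 genes was called, Ankrd1, a stretch-induced ankyrin repeat protein that was higher in the Ctrl-labelled libraries (-2.29, adjusted p = 0.00369). Col22a1, the collagen that fibres deposit at the junction and that was named after its values were seen, passed the adjusted p but not the fold limit (0.85, standard error 0.24, adjusted p = 0.0428). It had 20.8, 16.5 and 12.9 CPM in the Ctrl-labelled libraries and 22.4, 28.1 and 39.5 CPM in the cKO-labelled ones, highest in cKO 3. The genes of the muscle side of the junction had a median cKO 2 to cKO 1 ratio of 0.925 against 4.71 for the 10 tendon genes.

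Receptors of tendon matrix gave 2 calls among 19 genes, both higher in the Ctrl-labelled libraries. Itga9, a receptor chain for tenascin-C, had 31.4, 29.3 and 36.8 CPM in the Ctrl-labelled libraries and 12.0, 9.40 and 9.79 CPM in the cKO-labelled ones (log2 fold change -1.65, standard error 0.13, adjusted p = 0.000897). Itga5, the fibronectin receptor chain, changed by -1.04 (adjusted p = 0.00404), and by -0.87, under the fold limit, without the library labelled Ctrl 3. Neither followed the order of the 10 genes, which 8 of the 19 receptors tested held, against 20% of all genes tested. Cd36, a receptor of thrombospondins that muscle and vessels also express, did not pass (-0.19, adjusted p = 0.565).

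Markers of other cells were measured in the same libraries. Of 8 endothelial genes 0 were called by edgeR (2 at an unadjusted p under 0.05), 7 had negative fold changes, with a median of -0.17, and Vwf, named after its values were seen, passed the adjusted p but not the fold limit (-0.38, adjusted p = 0.0104). Cdh5, the most abundant of them, had 115 to 124 CPM over the 6 libraries, and their ratios of cKO 2 to cKO 1 ran from 0.704 to 1.59. Their summed level was 535 to 573 CPM in the Ctrl-labelled libraries and 483 to 502 CPM in the cKO-labelled ones. Markers of fibro-adipogenic progenitors, the resident fibroblasts of muscle, summed to 902 to 928 CPM in the Ctrl-labelled libraries and to 740, 937 and 896 CPM in cKO-labelled libraries 1, 2 and 3. Dcn, the most abundant of them, carried most of that difference within the group, as the sums without it were 343, 371 and 379 CPM, against 473 to 496 CPM in the Ctrl-labelled libraries, with no overlap. The median log2 fold change of the list was -0.52, and 3 of 10 markers held the order cKO 2 over cKO 3 over cKO 1. Their median ratio of cKO 2 to cKO 1 was 1.28, and 2 of 10 were called, Mfap5 (-1.49, adjusted p = 0.00177) and Ly6a (-1.13, adjusted p = 0.00521). Immune markers summed to 128 to 149 CPM in the Ctrl-labelled libraries and to 57.1, 85.5 and 74.1 CPM in the cKO-labelled ones, an order that 5 of 7 tested markers held, with a median ratio of 1.62; Lyz2 (-1.07) and Cd68 (-1.12) were called. Scaled by total counts, which moved the median of all genes to -0.27, calls were 5 of the immune and 4 of the progenitor markers. They were also 5 and 4 without the library labelled cKO 2, and immune calls were 0 without cKO 1 and 1 without Ctrl 2, Ctrl 3 or cKO 3. The part of these cells in the tendon genes' pattern was not tested.

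Cartilage and bone share several tendon genes, Comp and Chad among them. Of 12 such markers 4 passed the filter, Matn1 and Ibsp (both named after their values were seen) were at 0 counts in every library, and the only call was Sox9 (-2.62, standard error 0.18, adjusted p = 0.000627), a factor also made by other cells of muscle, with 20.0 to 30.4 CPM in the Ctrl-labelled libraries and 3.53 to 4.35 CPM in the cKO-labelled ones. Sox9 was lowest in the library labelled cKO 2, where the tendon genes were highest. Col2a1, which defines cartilage and was named after its values were seen, had 0.306, 0.410 and 0.383 CPM in the Ctrl-labelled libraries and 0.310, 1.40 and 0.318 CPM in the cKO-labelled ones. The remaining untested markers were also named after their values were seen. Matn3 had 5, 45 and 5 counts in cKO-labelled libraries 1, 2 and 3 and 2 to 10 in the Ctrl-labelled ones. Cnmd, counted under the symbol Lect1, had 1, 9 and 5 counts and 2 to 4. Acan, Col10a1, Bglap and Sp7 had at most 5 counts in any library. The summed level of the list was 23.5 to 33.0 CPM and 7.06 to 9.09 CPM, most of it Sox9 in the Ctrl-labelled libraries. Without Sox9 the sums were 2.66 to 3.53 CPM in the Ctrl-labelled libraries and 2.71, 5.56 and 3.45 CPM in cKO-labelled libraries 1, 2 and 3, and 3 of the 4 genes tested had positive fold changes.

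Nerve and Schwann cell markers summed to 201 to 282 CPM in the Ctrl-labelled libraries and 133 to 186 CPM in the cKO-labelled ones, with 1 of 9 called (Slc2a1, higher in the Ctrl-labelled libraries), and they were highest in cKO 1 and lowest in cKO 3 within that group. Slc2a1 lay close to the fold limit, and 0 of 9 were called with DESeq2's size factors, without a filter or in DESeq2's Wald test (log2 fold change -0.99 in each), or once Ctrl 3, cKO 2 or cKO 3 was left out. Adipocyte markers, led by Cfd, summed to 24.2 to 78.6 CPM and 32.2 to 75.3 CPM, with 0 of 6 called by edgeR and 0 at an unadjusted p under 0.05. Muscle fibre markers checked the tissue: Myh4, the myosin of type IIb fibres, had 15349 to 36565 CPM in the Ctrl-labelled libraries and 57352 to 80134 CPM in the cKO-labelled ones (log2 fold change 1.46, adjusted p = 0.0213). Pvalb was also higher in the cKO-labelled libraries (1.44) and Myh2 higher in the Ctrl-labelled ones (-1.23). Of 13 other fits, Myh4 kept its call in 9 (not with the replicate block or without Ctrl 2, cKO 1 or cKO 3), Myh2 in 9 (not without Ctrl 1, Ctrl 2, cKO 1 or cKO 3) and Pvalb in 11 (not without Ctrl 2 or cKO 3). The summed fibre markers were 91364, 104171 and 107674 CPM in Ctrl-labelled libraries 1, 2 and 3 and 175950, 135357 and 162356 CPM in cKO-labelled libraries 1, 2 and 3. Inside the group labelled cKO this was the reverse of the order of the tendon genes. Myh4 carried most of the difference between the labelled groups: without it the sums were 76015, 79522 and 71109.5 CPM in the Ctrl-labelled libraries and 95817, 78006 and 89495 CPM in the cKO-labelled ones, so that Ctrl 2 lay above cKO 2. The reverse order did not extend to the Ctrl-labelled libraries, which had tendon sums of 378 to 412 CPM, between those of cKO 1 (189 CPM) and cKO 3 (445 CPM). The part of fibre content in the tendon genes' order was not tested.

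**Figure D4:**
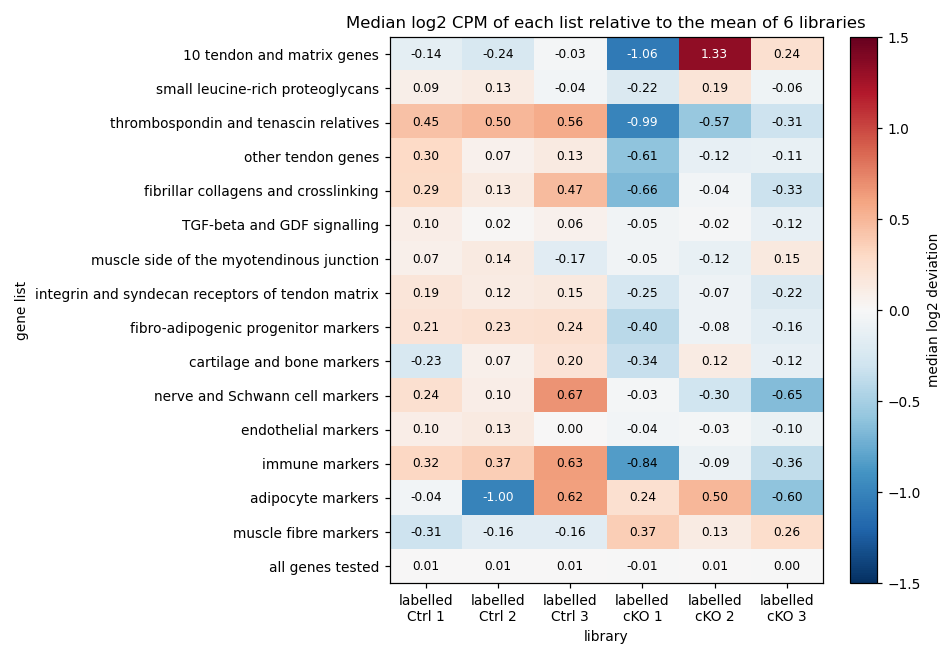
Median log2 deviation of each list's genes in each library from their own mean over the 6 libraries (red above, blue below). The 10 tendon and matrix genes run from -1.06 in the library labelled cKO 1 to 1.33 in cKO 2, while the median of endothelial markers stays between -0.10 and 0.13.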

How the data were processed

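Bulk RNA-Seq libraries of GP muscle, 3 labelled Ctrl and 3 labelled cKO, were grouped by their sample labels. The authors deposited counts per gene without normalization, and the submitters' processing notes name FastQC 0.11.8, Trimmomatic 0.39, HISAT2 2.1.0, featureCounts 1.6.2 and mm10; the gene annotation and the use of strand in counting are not given in the sources used here. Tests on the counts used edgeR 4.0.16 in R 4.3.3 (TMM factors, filterByExpr, glmQLFit and glmQLFTest, Benjamini-Hochberg adjustment over all genes tested). Calls needed both an adjusted p below 0.05 and a change of more than 2-fold. Standard errors were derived from the F statistic, and each p-value sets the difference between the labelled groups against the spread between mice within them. No library repeated another (replicates differed by a chi-square of 31.3 to 107 per degree of freedom). Positions and exon lengths come from GENCODE M21 on GRCm38, which mm10 also names, and upstream sequences from RefSeq.

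The 10 genes and the 14 other lists were chosen with earlier results of these data known, so they give no independent support. Named were the 10 genes, the called genes of each pathway and marker list with up to 2 abundant genes not called in each pathway list and the most abundant gene of some marker lists, the 5 genes most like Tnmd, and genes overlapping the 10; any other gene is said to be named after its values were seen. Alternatives were scaling by total counts or by DESeq2's size factors, leaving the genes unfiltered or asking for 10 counts in each library, DESeq2 1.42.0 (Wald test), the mouse number as a replicate block, robust empirical Bayes, no fold limit and each library left out in turn. Both edgeR and DESeq2 were checked on simulated counts.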

Additional observations from a re-analysis of the deposited data

How the results depend on the processing

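The call of Kera, the only one among the 10 genes, held with DESeq2's size factors, without a filter, with a minimum of 10 counts in each library and with DESeq2's Wald test, and the count of calls was 0 with total-count scaling (Kera 1.41, adjusted p = 0.0606) and with robust empirical Bayes (adjusted p = 0.0556). With each library left out in turn the count was 0 to 1, and Kera was called only without the library labelled cKO 1 (adjusted p 0.0226 to 0.114 by edgeR's quasi-likelihood test). No gene of the 10 was called toward the Ctrl label in any of these fits. The median log2 fold change of the 10 genes was 0.32 with total counts, and ran from -0.18 (without the library labelled cKO 2) to 0.94 (without cKO 1) when libraries were left out. Total counts moved the median of all genes to -0.27 and turned Scx to -0.23 and Tnc to -0.0076, which are 0.04 and 0.26 above that median. Leaving out cKO 2 turned 6 of the 10 genes: Scx to -0.31, Mkx to -0.19, Thbs2 to -0.17, Comp to -0.35, Tnc to -0.56 and Chad to -0.14. Their highest values with a library left out were 0.14, 1.03, 0.73, 0.85, 0.52 and 1.18, and Scx was also -0.10 without Ctrl 2. The cause of these shifts was not tested. Calls among the pathway genes were 2 toward the cKO label and 13 toward the Ctrl label, and 6 and 33 with no fold limit, and ran from 2 to 3 and from 11 to 15 with a library left out. Of the 9 called marker genes, 3 (Ly6a, Mfap5 and Sox9) kept their call under all 13 other fits; Slc2a1, Cd68, Lyz2, Myh4, Myh2 and Pvalb lost it in at least 1 fit that left out a library, and Slc2a1 also in 3 fits with all 6 libraries, with no change of direction.

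No pairing by mouse number was seen: deviations of same-numbered libraries correlated at 0.085, -0.24 and -0.0099 over 14180 genes. Libraries with different numbers correlated at -0.23 to 0.22. Such correlations cannot exclude that the numbers have a shared meaning across groups. With the mouse number as a replicate block, calls over all genes went from 858 to 684, Kera stayed called (1.49, adjusted p = 0.0484), the median of the 10 genes was 0.27, Scx was -0.025, and Col3a1 (-1.09, adjusted p = 0.056), Loxl1 (-1.07, 0.0626) and Myh4 (1.53, 0.0569) lost their calls by the adjusted p, with fold changes no smaller than without the block. Loxl1 also lost its call when Ctrl 3 (-0.82), cKO 1 or cKO 3 was left out.

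There were 3 mice a group, with a spread of up to 10.7-fold in the group labelled cKO. The 95% intervals of the tendon genes spanned up to 3.21 log2 units (Chad). For every tendon gene except Kera the interval held both negative and positive changes, so a change in either direction was not excluded. The smallest difference detectable with these mice was not computed. Mkx rests on 23 to 143 counts a library.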

Other observations

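Genes that were not among the 10 and that were named after their values were seen also differed widely between the libraries labelled cKO 2 and cKO 1. Cilp2, a cartilage intermediate layer protein, had 2.37, 33.9 and 12.3 CPM in cKO-labelled libraries 1, 2 and 3 and 9.44 to 13.0 CPM in the Ctrl-labelled ones, a ratio of 14.3 between cKO 2 and cKO 1. Wif1, a secreted WNT inhibitor, had 0.875, 7.56 and 2.36 CPM and 1.23 to 1.61 CPM, a ratio of 8.64. Col12a1, a collagen that sits on fibril surfaces, had 5.50, 25.5 and 10.2 CPM and 13.1 to 15.2 CPM, and Loxl4, a lysyl oxidase relative, had 1.47, 6.47 and 2.20 CPM and 1.84 to 3.45 CPM. Prg4 (lubricin, a lubricant of tendon and joint surfaces) had 9.06, 37.2 and 17.2 CPM and 19.6 to 32.7 CPM. Each of these genes, picked for their high ratio, held the order cKO 2 over cKO 3 over cKO 1, and none was called between the labelled groups (adjusted p 0.187 to 0.975 by edgeR's quasi-likelihood test). Of the 19 other tendon genes tested, 10 held that order, and Fibin, also named after its values were seen, ran the other way, with 25.7, 11.2 and 16.5 CPM.

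Gpr179, which is on none of the lists, and Myh7, the myosin of slow fibres, were also named after their values were seen. Gpr179 had 47.5 CPM in the library labelled cKO 2 and 0.191 to 0.841 CPM in the other 5. Myh7 had 494, 974 and 75.3 CPM in cKO-labelled libraries 1, 2 and 3 and 1723 to 3676 CPM in the Ctrl-labelled ones, so its order within the group labelled cKO was not that of the tendon genes.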
